A study of Mus musculus with 4 samples.

Results

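The mitosis and G2/M genes described here are 52 mouse genes whose products take a cell from the end of DNA replication through chromosome segregation to division. They were matched by gene symbol to probe sets that list 1 gene each, and each gene was read from its brightest probe set by mean signal. Of the 52 genes, 51 had such a probe set, drawn from 119 probe sets in all, and Ccnb1 was not analysed here. Cenph lay below the filter on low values, a mean signal of 95.0, so 50 members were tested among 12187 of 18194 genes. Both groups were C57BL/6 mice with liver fibrosis from 30 injections of carbon tetrachloride at 1 ml/kg, which poisons hepatocytes. During the final 7 days the G-CSF group received recombinant human granulocyte colony-stimulating factor, a cytokine that drives neutrophil production, at 100 µg/kg. The PBS group received phosphate-buffered saline with mouse serum albumin at 0.1% instead. Each group has 2 arrays, and RNA came from liver tissue labelled as bone marrow-derived cells, with no sort or gate, age or sex given in the sources used here. Nothing in the labels says whether the 2 arrays of a group came from separate animals, so p-values measure only the spread between these arrays.

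A dividing cell makes most of these transcripts only from S phase to mitosis, and destroys many of the proteins at its end, so a quiescent liver holds little of them. Cyclins A and B with Cdk1 drive entry into mitosis, Plk1 and the Aurora kinases build the spindle, and the spindle checkpoint holds the anaphase promoting complex back until every chromosome is attached. Securin and cyclin B are then destroyed, sister chromatids part, and the cytokinesis proteins close the cleavage furrow. In adult liver most hepatocytes rest, and cycling cells include regenerating hepatocytes, non-parenchymal cells and blood cell precursors. In these bulk samples, more cycling cells and more of each transcript per cycling cell cannot be told apart.

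PBS replicate 1 was the array least like the rest. Over the tested genes its Pearson r with each of them was 0.813 to 0.844, while the other 3 arrays correlated at 0.939 to 0.974. Of the liver's defining markers, all 9 measured hepatocyte genes were above background on all 4 arrays, and their summed signal was 158638 in PBS replicate 1 and 277275 in PBS replicate 2, while the G-CSF arrays had 242330 and 232526. The background of an array is the highest signal of 27 control probe sets, 106 and 94.6 on the PBS arrays and 86.4 and 63.0 on the G-CSF arrays. The ratio of 3′ to 5′ Gapdh signal, a measure of RNA integrity, was 15.7 and 14.8 with PBS, then 20.2 and 19.1 with G-CSF. For Actb that ratio was 11.2 and 9.88 with PBS, then 12.6 and 13.7 with G-CSF. On every array the 3′ signal was thus many times the 5′ signal, and more so on both G-CSF arrays.

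The members were highest in PBS replicate 1, lowest in PBS replicate 2 and in between on both G-CSF arrays. The median signal over the 50 tested members was 2431 in PBS replicate 1, 289 in PBS replicate 2, and 819 and 913 on the G-CSF arrays. In 49 of the 50 both G-CSF arrays lay above PBS replicate 2 and below PBS replicate 1, an order held by 16.5% of all genes tested. The exception was Pttg1, which encodes securin: both G-CSF arrays lay above PBS replicate 1 and below PBS replicate 2, as in 21.8% of all genes. No member had groups without overlap, whereas 30.7% of all genes did. The PBS arrays differed by a median of 7.76-fold over the tested members (range 0.733 to 19.7), by at least 4-fold in 42 and by at least 8-fold in 23. The G-CSF arrays lay within 1.5-fold of each other in 41 members, with G-CSF replicate 2 the higher in 43. The median SD between replicates on the log2(signal + 23) scale was 2.09 with PBS and 0.15 with G-CSF over the members, against 0.49 and 0.15 over all genes tested.

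**Figure D1:**
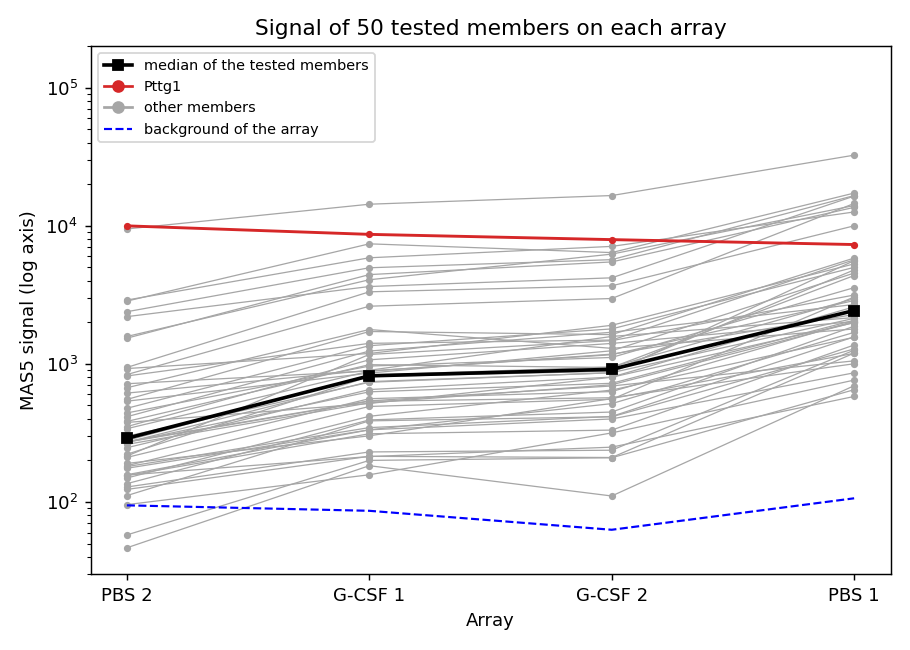
MAS5 signal (log axis) of each of the 50 tested members on the 4 arrays, 1 line per gene, with the arrays set in order of the members' median (black squares) and each array's background dashed. All lines but that of Pttg1 (red) lie lowest at PBS replicate 2 and highest at PBS replicate 1, where the median is 2431 against 289.

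With all 4 arrays in the fit, no member was called different between G-CSF and PBS. In limma with Benjamini-Hochberg adjustment over all genes, 0 of 50 members were called at 0.05, and 0 of 50 had an unadjusted p below 0.05, while 0% of all genes were called higher or lower and 3.52% had an unadjusted p below 0.05. The smallest adjusted p of a member was 0.988. The median difference, G-CSF minus PBS, was −0.18 on the log2(signal + 23) scale (range −0.85 to 0.62), against 0.07 over all genes tested, and the median SE of a member was 0.98 (n = 2 arrays per group). None of the 50 was at least 2-fold apart without overlap, where 4.04% of all genes were higher and 1.52% lower by that rule. The smallest two-sided p that exact permutation of 2 arrays against 2 allows is 0.333. The average of the PBS arrays hides the order of the arrays, so the G-CSF arrays were also set against each PBS array alone. These comparisons share the G-CSF arrays, have 1 residual degree of freedom each, and take the lone PBS array to vary like the G-CSF arrays. The members do not meet that assumption: their median SD between replicates was 2.09 with PBS and 0.15 with G-CSF. The SEs and p-values below therefore leave out the spread between the PBS arrays. Calls below describe the distance from 1 PBS array and not an effect against the PBS group.

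Against PBS replicate 1 alone, members were lower on the G-CSF arrays. In limma, 46 of 50 were called lower and 0 higher, against 15.9% of all genes called lower and 22.6% higher. The median difference of the members was −1.63 (range −2.77 to 0.18), that is 3.10-fold lower, against 0.19 over all genes tested. Both G-CSF arrays were at least 2-fold below PBS replicate 1 in 40 members and in 9.03% of all genes. The 4 members not called were Pttg1, Cenpa, Prc1 and Anln.

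Against PBS replicate 2 alone, the direction was the opposite. In limma, 26 of 50 members were called higher with G-CSF and 0 lower, against 2.78% of all genes called higher and 1.45% lower. The median difference was 1.22 (range −0.27 to 2.49), that is 2.33-fold higher, against 0.00066 over all genes tested. Both G-CSF arrays were at least 2-fold above PBS replicate 2 in 27 members and in 3.54% of all genes. The count of calls depended on the settings. Without the trend of variance with signal it was 1 of 50, with no filter on low values it was 3 of 51, with the mean of all probe sets of a gene it was 13 of 50, and without probe sets whose identifier marks probes shared between transcripts it was 12 of 40. Kif20a and Dlgap5, with signals of 57.8 and 46.6, lay at background in PBS replicate 2. Against that background the rise was at least 2.16-fold for Kif20a and at least 1.5-fold for Dlgap5, and neither was called (limma, adjusted p = 0.0774 and 0.203).

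**Figure D2:**
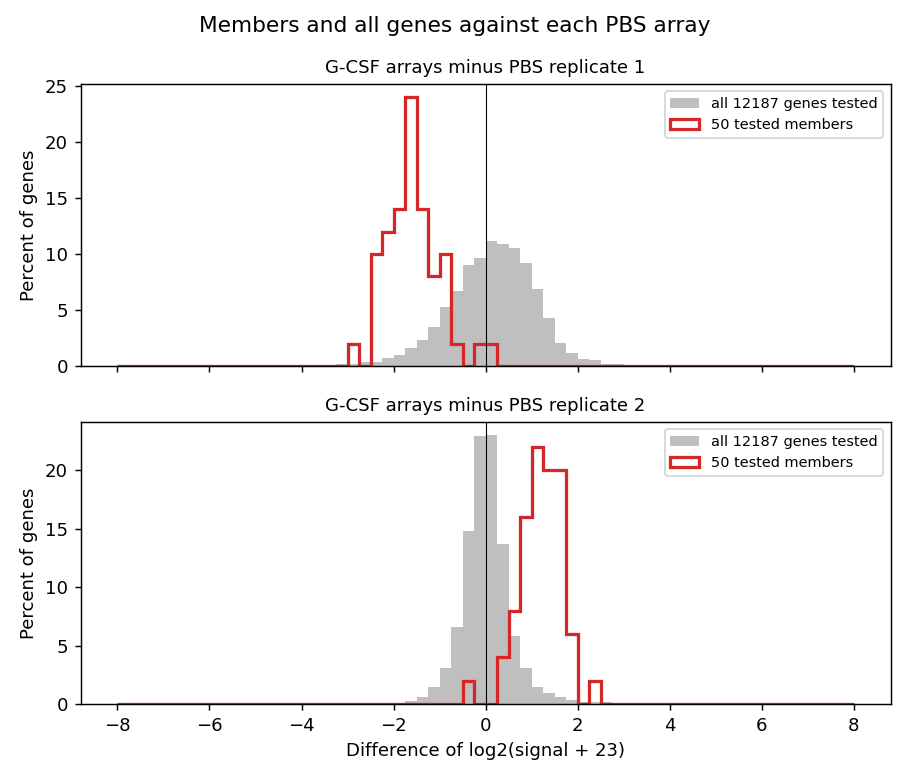
Distribution of the difference on the log2(signal + 23) scale, G-CSF arrays minus PBS replicate 1 (top) and minus PBS replicate 2 (bottom), for all 12187 genes tested (grey) and the 50 tested members (red outline), in percent of genes. The members centre on −1.63 in the top panel and 1.22 in the bottom panel, while all genes centre on 0.19 and 0.00066.

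Since the members moved together across the arrays, the promoters of the members were searched for the 2 elements best known from mitotic genes. The cell cycle homology region, TTTGAA, is bound by MuvB complexes, which repress these genes in resting cells and activate them before mitosis, and CCAAT is bound by NF-Y. RefSeq promoters on GRCm38.p6 matched 45 of the 52 members, with 50 promoters, and the 250 bases before the start were searched on both strands. CCAAT was found in 37 of the 50 promoters (74%), against 33.8% of all 32851 promoters. At least 2 copies were found in 23 (46%), against 10.1% of all. TTTGAA was found in 19 (38%), against 16.0% of all, and both elements in 16 (32%), against 5.55%. A match on 1 strand can share bases with a match on the other, and a match describes these letters and not a binding site. Among tested members, the 15 with both elements had a median signal 1.98-fold higher with G-CSF than in PBS replicate 2, and the 28 without both 2.25-fold. The 4 promoters below belong to the members with both elements and the highest mean signal, and the matches to either element on either strand are in capitals.
Cks1b, chr3:89418292-89418541, minus strand: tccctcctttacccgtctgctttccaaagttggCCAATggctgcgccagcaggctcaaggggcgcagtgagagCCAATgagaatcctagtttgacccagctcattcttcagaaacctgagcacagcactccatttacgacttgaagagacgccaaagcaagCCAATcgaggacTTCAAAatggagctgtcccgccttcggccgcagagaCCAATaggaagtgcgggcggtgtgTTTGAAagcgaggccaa
Kif22, chr7:127042421-127042670, minus strand: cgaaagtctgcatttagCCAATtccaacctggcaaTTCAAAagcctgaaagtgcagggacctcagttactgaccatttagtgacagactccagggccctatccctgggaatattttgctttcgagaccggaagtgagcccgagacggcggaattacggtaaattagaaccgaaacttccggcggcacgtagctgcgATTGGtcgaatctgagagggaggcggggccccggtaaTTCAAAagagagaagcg
Cdc20, chr4:118437344-118437593, minus strand: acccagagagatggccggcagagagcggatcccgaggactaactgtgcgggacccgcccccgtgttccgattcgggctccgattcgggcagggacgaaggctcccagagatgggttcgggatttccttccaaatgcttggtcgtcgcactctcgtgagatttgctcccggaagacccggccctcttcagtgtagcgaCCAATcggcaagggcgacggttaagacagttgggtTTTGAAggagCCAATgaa
Mki67, chr7:135716380-135716629, minus strand: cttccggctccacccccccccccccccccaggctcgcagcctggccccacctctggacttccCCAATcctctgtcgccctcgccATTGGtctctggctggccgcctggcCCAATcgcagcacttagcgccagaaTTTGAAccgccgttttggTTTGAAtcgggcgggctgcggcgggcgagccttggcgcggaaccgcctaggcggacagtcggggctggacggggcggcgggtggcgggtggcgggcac
The Cks1b promoter holds 4 CCAAT and 2 TTTGAA matches, the nearest TTTGAA match beginning 17 bases before the start. Kif22 holds 2 of each, and its nearest TTTGAA match also begins 17 bases before the start. In Cdc20 the only TTTGAA match begins 18 bases before the start, with 2 CCAAT matches beginning 53 and 8 bases before it. Mki67 holds 3 CCAAT matches, beginning 141 to 188 bases before the start, and 2 TTTGAA matches.

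The proliferation marks followed the order of the whole list. Counts of calls in each role stand against the shares of all genes given above. Those against PBS replicate 2 depend on the settings as stated there. Mki67, which encodes the Ki-67 protein that coats mitotic chromosomes, had signals of 13571 in PBS replicate 1, 1534 in PBS replicate 2, 4425 in G-CSF replicate 1 and, on the other array, 5466. Pairs of signals below follow the replicate numbers. It was 2.75-fold lower with G-CSF than in PBS replicate 1 (difference −1.46 ± 0.19, SE of the fit, n = 2 against 1; limma, adjusted p = 0.00209) and 3.17-fold higher than in PBS replicate 2 (1.67 ± 0.20, adjusted p = 0.0101). Top2a, the topoisomerase that untangles sister chromatids, had signals of 14482 and 837 with PBS, then 2613 and 2971 with G-CSF. It fell against PBS replicate 1 (−2.37 ± 0.18, limma adjusted p = 0.000414) and rose against PBS replicate 2 (1.71 ± 0.20, adjusted p = 0.00869). Without probe sets of shared probes Top2a was read from a far dimmer probe set and neither call held (−0.80 and 0.39, limma adjusted p = 0.107 and 0.674), and with the mean of all its probe sets the differences were −1.07 and 0.78 (adjusted p = 0.0193 and 0.206). For both genes the PBS arrays lay outside the range of the G-CSF arrays on either side.

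Among the cyclins, Cdk1 and its Cks subunits, the cyclins stood nearer to PBS replicate 1 than Cdk1 did. Cks1b, a small subunit that binds cyclin-dependent kinases, had signals of 32388 and 9472 with PBS, then 14301 and 16522 with G-CSF. Its paralogue Cks2 had 12570 and 2895 with PBS, then 5857 and 7081 with G-CSF. All 5 measured members were called lower against PBS replicate 1 and 3 of 5 higher against PBS replicate 2, where Cks1b was not called (0.70 ± 0.17, limma adjusted p = 0.081). Ccna2 and Cdk1 are named after their values were seen, as the extremes of this role. Ccna2, cyclin A2, had signals of 3148 and 215 with PBS, then 1169 and 1471 with G-CSF, and its difference from PBS replicate 2 was the largest of the 50 tested members (2.49 ± 0.25, a 5.61-fold rise, limma adjusted p = 0.00502). That rank, and the place of Ccna2 on the span below, rest on 1 of 2 Ccna2 probe sets of similar signal. The other had 2260 and 615 with PBS, then 1338 and 1145 with G-CSF. By that probe set Ccna2 differed from PBS replicate 1 by −0.86 and from PBS replicate 2 by 0.98. Cdk1, the kinase that it and cyclin B activate, had 2871 and 718 with PBS, then 888 and 1165 with G-CSF, a difference of 0.49 ± 0.25 from PBS replicate 2 (adjusted p = 0.388). Placed on the log2 span from PBS replicate 2 to PBS replicate 1, the G-CSF mean lay at 66.6% for Ccna2, 66.5% for Ccnb2, cyclin B2, and 24.9% for Cdk1, with a median of 42.6% over the 49 members in that order (range 22.3% to 82.9%).

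The mitotic kinases were all called lower against PBS replicate 1 (5 of 5), and Plk1 and Plk4 higher against PBS replicate 2. Plk4, the kinase that starts centriole duplication, had signals of 3559 and 441 with PBS, then 963 and 1112 with G-CSF, 3.38-fold below PBS replicate 1 and 2.28-fold above PBS replicate 2. Nek2, which parts the centrosomes, had 1985 and 376 with PBS, then 517 and 800 with G-CSF, and its difference of 0.74 ± 0.32 from PBS replicate 2 was not called (limma, adjusted p = 0.299). Plk1 differed from PBS replicate 2 by 1.66 ± 0.29 and Aurka by 0.97 ± 0.26, the latter without a call.

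In the chromosomal passenger complex, which corrects faulty attachments of chromosomes to the spindle, all 4 subunits were called on both sides. Cdca8, borealin, had signals of 9975 and 942 with PBS, then 3322 and 3670 with G-CSF, a 3.64-fold rise over PBS replicate 2 (1.86 ± 0.19, limma adjusted p = 0.00505). Incenp, the scaffold of the complex, had 16516 and 2383 with PBS, then 4959 and 5677 with G-CSF. Their partners Aurkb, the kinase, and Birc5, survivin, rose by 1.40 ± 0.26 and 1.35 ± 0.25 over PBS replicate 2. The rises of the 4 subunits ran from 1.15 to 1.86.

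Spindle checkpoint genes, whose products delay anaphase, were all called lower against PBS replicate 1 (4 of 4), and Bub1 and Bub1b higher against PBS replicate 2. Bub1b, BubR1, had signals of 4784 and 222 with PBS, then 808 and 884 with G-CSF, and its 19.7-fold gap between the PBS arrays was the widest of the tested members. Mad2l1, Mad2, had 5291 and 925 with PBS, then 1188 and 1901 with G-CSF, and was not called against PBS replicate 2 (0.69 ± 0.30, limma adjusted p = 0.306). For the kinase Ttk the difference there was 1.06 ± 0.45, also without a call.

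The genes of the anaphase promoting complex and of chromatid separation held the one departure from the common order. Cdc20, which activates the complex, had signals of 13982 and 1578 with PBS, then 4060 and 6226 with G-CSF, a rise of 1.66 ± 0.27 over PBS replicate 2 (limma, adjusted p = 0.0261). Pttg1, securin, the inhibitor of separase and a target of that complex, had 7302 and 9971 with PBS, then 8653 and 7928 with G-CSF. It was the only tested member lowest in PBS replicate 1, and was called against neither PBS array (0.18 ± 0.16 and −0.27 ± 0.16, limma adjusted p = 0.401 and 0.477). The other Pttg1 probe sets had signals of 337 and 479 with PBS, then 425 and 448 with G-CSF, and of 171 and 175 with PBS, then 146 and 140 with G-CSF, so none of the 3 showed the order of the other members. Espl1, separase itself, named after its values were seen, had 1567 and 180 with PBS, then 345 and 416 with G-CSF. Ube2c, the ubiquitin-conjugating enzyme of the complex, Cdca5, sororin, and Cdca3 rose over PBS replicate 2 by 1.66 ± 0.34, 1.66 ± 0.25 and 1.74 ± 0.25.

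**Figure D3:**
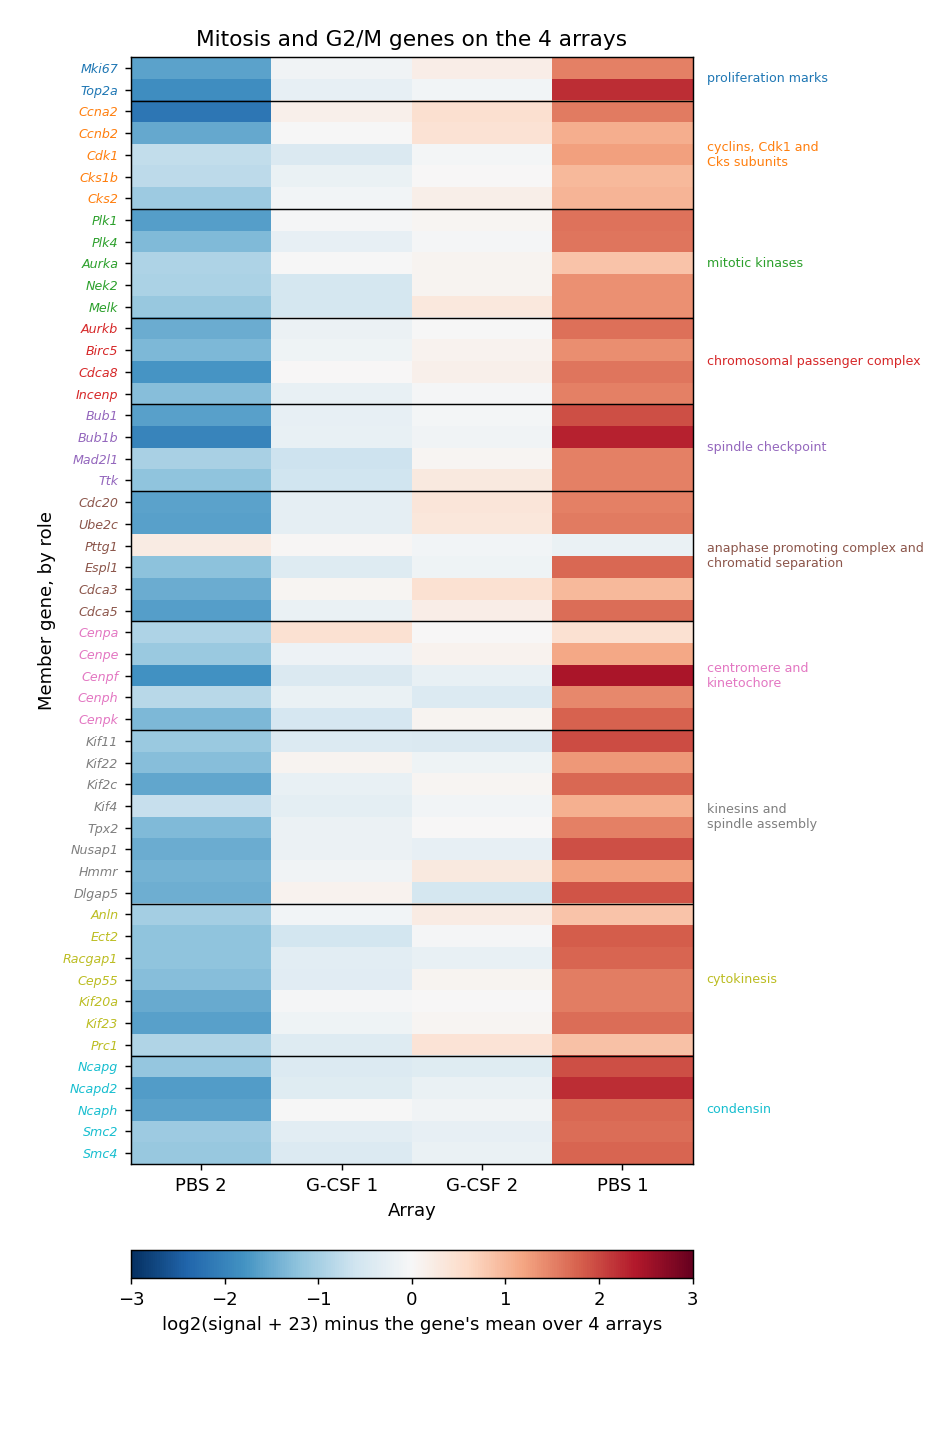
Level of the 51 measured members by role (rows, colours of the names mark roles) on the 4 arrays (columns), as log2(signal + 23) minus the gene's own mean over the arrays. PBS replicate 2 is lowest and PBS replicate 1 highest in 49 of the 50 tested members, and Pttg1 runs the other way.

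Centromere and kinetochore genes ranged from −2.77 to −0.24 against PBS replicate 1, and 3 of 4 were called lower there. Cenpf, an outer kinetochore protein, had signals of 5583 and 271 with PBS, then 744 and 862 with G-CSF, and its 6.81-fold lower level against PBS replicate 1 was the largest of the tested members (−2.77 ± 0.21, limma adjusted p = 0.000414). Another, dimmer Cenpf probe set gave 0.15 there. Cenpa, the histone H3 variant that marks centromeres, had 1788 and 671 with PBS, then 1772 and 1295 with G-CSF, so that G-CSF replicate 1 nearly equalled PBS replicate 1. Its differences were −0.24 ± 0.24 and 1.15 ± 0.25 and neither was called (limma, adjusted p = 0.466 and 0.0629). Cenpe, a kinetochore motor, and Cenpk were called lower against PBS replicate 1 but not higher against PBS replicate 2 (1.10 ± 0.30 and 1.14 ± 0.34). Cenph, which was not tested, reached 232 on the first PBS array and lay at background on the other 3 arrays.

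Kinesins and spindle assembly genes were called lower against PBS replicate 1 in 8 of 8 and higher against PBS replicate 2 in 5 of 8. Kif22, a kinesin that pushes chromosome arms, had signals of 17218 and 2845 with PBS, then 7389 and 6387 with G-CSF (1.26 ± 0.18 over PBS replicate 2, limma adjusted p = 0.0181). Nusap1, which bundles spindle microtubules, had 4356 and 383 with PBS, then 986 and 941 with G-CSF (1.28 ± 0.23, adjusted p = 0.0337). Kif11, the motor that parts the spindle poles, is named after its values were seen. With signals of 1196 and 123 with PBS, then 214 and 210 with G-CSF, it lay nearest to PBS replicate 2 of the 49 members, at 22.3% of the span. That rank rests on the brightest of 3 Kif11 probe sets, which differed from PBS replicate 2 by 0.68. The next, of similar signal, had 1049 and 117 with PBS, then 274 and 241 with G-CSF, a difference of 1.00. The dimmest differed by 1.10. Kif2c, Hmmr and Tpx2 were also called higher against PBS replicate 2, and Kif4 and Dlgap5 were not.

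Cytokinesis genes were called lower against PBS replicate 1 in 5 of 7, and Kif23, a centralspindlin motor, was the only 1 of 7 called higher against PBS replicate 2 (1.59 ± 0.24, limma adjusted p = 0.0223). Ect2, the exchange factor that switches on RhoA at the furrow, had signals of 4539 and 537 with PBS, then 857 and 1243 with G-CSF. Prc1, which bundles microtubules of the midzone, had 2162 and 614 with PBS, then 898 and 1578 with G-CSF, and was called against neither PBS array (−0.85 ± 0.33 and 0.93 ± 0.34). Differences from PBS replicate 2 ran from 0.92 to 1.59 over the 7, which include Anln, Racgap1, Cep55 and Kif20a.

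Condensin subunits, which compact chromosomes for mitosis, showed the largest fall against PBS replicate 1 and the smallest rise over PBS replicate 2 of any role by median, −2.06 and 0.82. Smc4, a core ATPase subunit, had signals of 16371 and 2196 with PBS, then 3628 and 4193 with G-CSF, 4.18-fold below PBS replicate 1 and 1.77-fold above PBS replicate 2, the latter without a call (limma, adjusted p = 0.0682). Ncaph, the kleisin subunit of condensin I, had 5829 and 553 with PBS, then 1714 and 1627 with G-CSF and was called on both sides (1.56 ± 0.21 over PBS replicate 2, adjusted p = 0.014). Ncapd2 was called there as well, and Smc2 and Ncapg were not. Medians of the other roles over PBS replicate 2 ran from 1.03 for the mitotic kinases to 1.69 for the proliferation marks. Differences between roles were not tested.

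**Figure D4:**
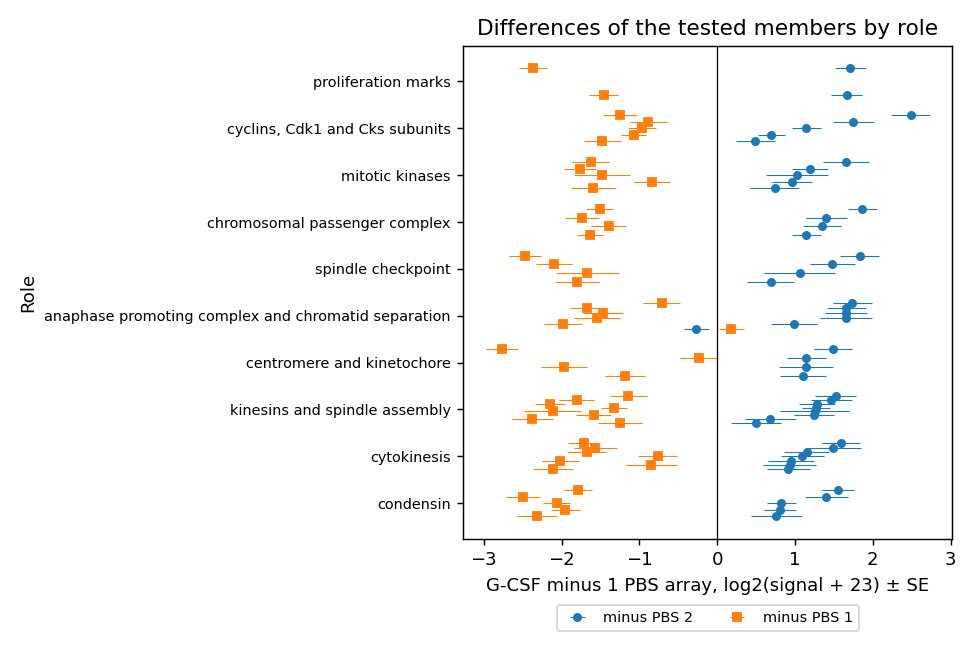
Difference of each tested member by role, G-CSF arrays minus PBS replicate 2 (blue circles) and minus PBS replicate 1 (orange squares), on the log2(signal + 23) scale with the SE of the limma fit. Blue points lie above 0 and orange points below it for all members but Pttg1, and condensin has the lowest blue median, 0.82.

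Of 68 further probe sets for these genes, 41 passed the filter, and 29 of the 41 showed both G-CSF arrays between PBS replicate 2 and PBS replicate 1. The other 12, which include probe sets for Smc2, Nek2 and Kif22, did not. For Tpx2, 2 of its 4 probe sets turned the direction on both sides, with differences of 1.23 and 0.029 from PBS replicate 1 and −0.26 and −0.094 from PBS replicate 2. A dimmer probe set of Smc4 gave −0.61 against PBS replicate 2. Of the 12 members given with signals by role rank that were called higher against PBS replicate 2, 10 lost that call with the mean of all probe sets or without probe sets of shared probes: Top2a, Plk4, Cdca8, Incenp, Bub1b, Cdc20, Cenpf, Kif22, Nusap1 and Ncaph. The values without shared probes were 0.090 for Kif22 and 0.76 for Cdc20, and the mean of all probe sets gave 0.64 for Nusap1 and 0.63 for Incenp. Against PBS replicate 1, Nek2 lost its call with the mean of all probe sets (−0.75, limma adjusted p = 0.0739).

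Genes of related processes that are not members were compared in the same way. Their counts stand against the shares of all genes given above. These were 15.9% called lower and 22.6% higher against PBS replicate 1, and 1.45% lower and 2.78% higher against PBS replicate 2. Of the other mitotic genes, 27 of 30 were tested, 20 were called lower against PBS replicate 1 and 1 higher, and 4 were called higher against PBS replicate 2, with medians of −1.34 and 0.86. Stmn1, a microtubule destabiliser, had signals of 39044 and 8478 with PBS, then 13756 and 16167 with G-CSF. Ncapg2, of condensin II, had 5841 and 836 with PBS, then 1379 and 1334 with G-CSF, and Pbk, a mitotic kinase, had 6103 and 520 with PBS, then 791 and 1083 with G-CSF. Among 23 tested genes of S phase and replication, 21 were called lower against PBS replicate 1 and 1 higher, and 4 higher against PBS replicate 2, with medians of −2.10 and 0.70. Rrm2, a subunit of ribonucleotide reductase, had 23657 and 2484 with PBS, then 6280 and 6155 with G-CSF, and Mcm7, of the replicative helicase, had 23614 and 2552 with PBS, then 4435 and 5694 with G-CSF. Both G-CSF arrays lay between PBS replicate 2 and PBS replicate 1 in 20 of these 23 genes and in 23 of the 27 other mitotic genes. Fen1, the flap endonuclease of lagging strand synthesis, departed from this order with 16390 and 35491 with PBS, then 35454 and 36461 with G-CSF. Mcm2, of the replicative helicase, lay below both PBS arrays with G-CSF (5949 and 1840 with PBS, then 1209 and 770 with G-CSF). Cdkn3, a phosphatase that acts on cyclin-dependent kinases, lay above both (244 and 161 with PBS, then 514 and 607 with G-CSF) and was the 1 other mitotic gene called higher against PBS replicate 1 (1.12, and 1.66 against PBS replicate 2). Both are named after their values were seen. Among cell cycle inhibitors and anti-proliferative genes, 4 of 12 tested had both G-CSF arrays between PBS replicate 2 and PBS replicate 1, against 16.5% of all genes. Of the 12, 2 were called lower and 1 higher against PBS replicate 1, and 0 against PBS replicate 2 in limma, where 3 had an unadjusted p below 0.05, as did 17.5% of all genes. Their medians were −0.08 and 0.15. Btg1, an anti-proliferative factor, had 13032 and 7209 with PBS, then 12205 and 10821 with G-CSF, Ccng1, a p53 target, 6378 and 5525 with PBS, then 5371 and 5941 with G-CSF, and Ccng2 had 6308 and 2447 with PBS, then 3454 and 2790 with G-CSF.

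Markers of other cell types also differed between the arrays. The T cell and thymocyte markers, 18 of 20 measured, summed to a signal of 74071 in PBS replicate 1, against 4319 in PBS replicate 2 and 6335 and 4406 with G-CSF. All 18 were above background in PBS replicate 1, against 11 in PBS replicate 2 and 9 and 13 on the G-CSF arrays. Each array has its own background, lowest on G-CSF replicate 2 at 63.0, so these counts do not share a cut-off. Rag1, of the recombinase that cuts antigen receptor genes in immature lymphocytes, reached 6016 in PBS replicate 1 and only 1.61 to 2.20 elsewhere. Dntt, the terminal transferase of the same stage, had 20056 in PBS replicate 1 against 17.2 to 94.0. Rag1 lay at background on the other 3 arrays, and Dntt on PBS replicate 2 and G-CSF replicate 1. Rag1 and Dntt are named after their values were seen. Both G-CSF arrays were at least 2-fold below PBS replicate 1 in 15 of the 17 tested markers, against 9.03% of all genes. The rest were Zap70, with 1155 and 1352 with PBS, then 1762 and 1796 with G-CSF, and Cd8a. Cd8a had 1362 and 1359 with PBS, then 2249 and 962 with G-CSF. Some of the 15, such as Rag1 and Ptcra, passed the filter on mean signal only through PBS replicate 1. Ptcra had 1258 and 64.4 with PBS, then 26.7 and 37.1 with G-CSF. For such markers a place in this count was largely fixed in advance. Neutrophil precursor markers, 8 of 11 measured, summed to 5599 and 1626 with PBS, then 130745 and 121490 with G-CSF. Mpo, made in promyelocytes, had signals of 166 and 96.4 with PBS, then 11636 and 21026 with G-CSF. The summed signal of the 51 measured members was 5.38 times that of PBS replicate 2 in PBS replicate 1, and 1.85 and 2.12 times in the G-CSF arrays. Summed erythroid markers were 1.42, 1.05 and 0.870 times, and B cell markers 0.824, 1.00 and 0.662 times, that of PBS replicate 2 in the same order. In PBS replicate 1, Tfrc gave 3257 of the erythroid sum of 4220, and Blk 1882 of the B cell sum of 3445. The median signal of the 8 tested B cell genes was 164 and 378 with PBS, then 262 and 196 with G-CSF. The summed hepatocyte, monocyte and macrophage, endothelial and cholangiocyte lists were lower than in PBS replicate 2 on each of the other 3 arrays, by ratios of 0.342 to 0.925. Bright genes dominate such sums: Csf1r gave 32950 of the monocyte and macrophage sum of 43945 in PBS replicate 2. Over the 6 tested genes of that list, the median difference from PBS replicate 2 was −0.21 (range −0.99 to 1.32). The highest was Ccr2, with 803 and 1403 with PBS, then 3082 and 4053 with G-CSF. Stellate cell and myofibroblast markers had ratios of 0.725, 1.04 and 1.28. The part of thymocyte, neutrophil precursor and other transcripts, and of the RNA integrity ratio, in the members' order was not tested.

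**Figure D5:**
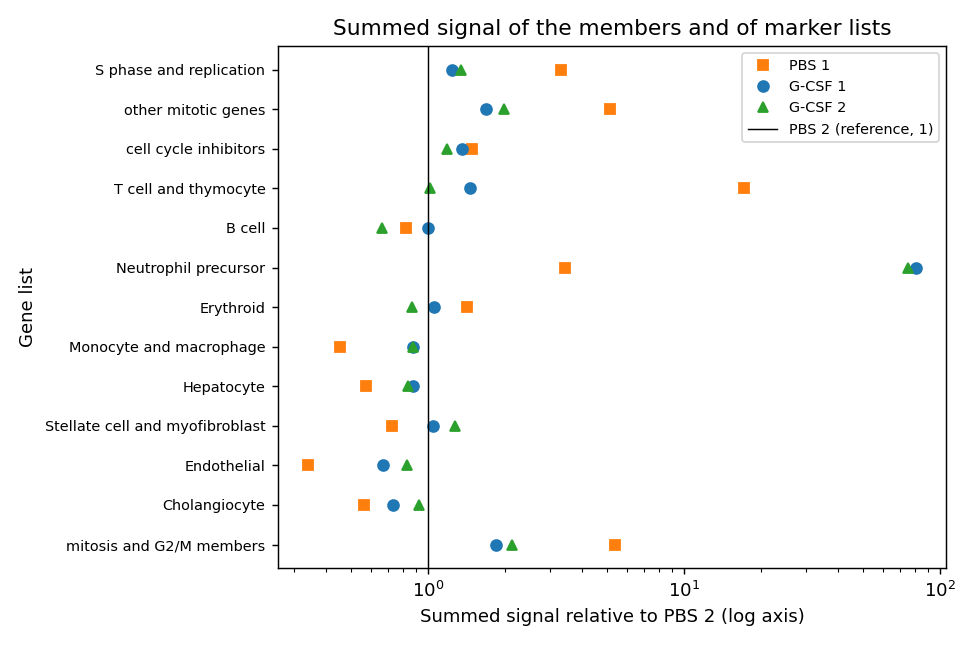
Summed signal of each gene list relative to PBS replicate 2 (log axis), for PBS replicate 1 (squares), G-CSF replicate 1 (circles) and G-CSF replicate 2 (triangles). The members lie at 5.38, 1.85 and 2.12, the T cell and thymocyte list is high in PBS replicate 1 and the neutrophil precursor list is high on both G-CSF arrays.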

How the data were processed

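RNA of 4 samples, 2 per group, was measured on Affymetrix mouse arrays with 45101 probe sets. The deposited values are MAS5 signal intensities, per the submitters' processing notes, which name no version. Every array has the same 2% trimmed mean, 500, a scaling that sets no gene's own level, and no detection call was used. Of the probe sets, 34945 name 1 gene, 932 several, 9160 none and 64 are controls. The brightest single-gene probe set stood for each gene. Samples were grouped by their labels, and 0 columns lacked a sample.

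Differences were taken on log2(signal + 23), where the pseudocount of 23 follows from the median of all values, 92.9. This understates changes of dim genes. Genes whose mean signal passed 95.0 (the median of the non-control probe sets) were tested with limma 3.58.1 in R 4.3.3 (lmFit, eBayes with a trend), with Benjamini-Hochberg adjustment over all tested genes and a threshold of 0.05. Fits of all arrays, and of PBS replicate 2 with the G-CSF arrays, were run on simulated data with the same spread in both groups. The members' PBS arrays spread more than their G-CSF arrays, so the simulation does not cover that case. The fit with PBS replicate 1 alone was not simulated. Tables and figures used Python 3.11.15 with pandas 2.3.3 and matplotlib 3.10.9. The background limit, the highest of 27 control probe sets, was chosen after the data were seen. The members, roles and lists were chosen with earlier results of these data known. Signals on all arrays are given for the 2 tested members of each role with the highest mean signal, and for up to 3 genes of each further pathway list. Values of other genes named with signals were chosen after they were seen. Alternatives changed the normalization, pseudocount, filter, variance trend, probe set choice, replicate block and arrays included. The number of arrays limits the precision.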

Additional observations from a re-analysis of the deposited data

How the results depend on the processing

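The order of the PBS arrays sets each result against the PBS group. Over the fits that left out 1 array each, all genes called ranged from 6 to 4689, against 0 with all 4 arrays: 516 without PBS replicate 1, 4689 without PBS replicate 2, 6 without G-CSF replicate 1 and 22 without G-CSF replicate 2. Members called ranged from 0 to 46 (26 higher without PBS replicate 1, 46 lower without PBS replicate 2), members at least 2-fold apart without overlap from 0 to 42 (35 higher and 42 lower in the same order), and the members' median difference from −1.63 to 1.22. The lone array left in a group is assumed to vary like the others, an assumption that the members' PBS arrays do not meet. With the replicate number as a block (replicate block), 92 genes and 0 members were called. The deviations of same-numbered arrays correlated at −0.038 over genes. The labels give only the number, and this correlation cannot tell whether same-numbered arrays were handled together. Without probe sets of shared probes, 11 genes were called.

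Against PBS replicate 1, the members' median was −1.50 with 4 times the pseudocount, −1.37 with the mean of all probe sets, and −1.80 to −1.47 with 1 G-CSF array left out. Against PBS replicate 2, members called fell from 26 to 3 with no filter, 1 with no variance trend, 13 with the mean of all probe sets and 12 without probe sets of shared probes. The median there was 1.08 with 4 times the pseudocount, 0.91 with the mean of all probe sets, 1.10 without probe sets of shared probes, and 1.19 to 1.35 with 1 G-CSF array left out. The direction turned for Pttg1 against PBS replicate 1 without probe sets of shared probes (−0.22), for Cenpa against PBS replicate 1 with the mean of all probe sets (0.012) and against PBS replicate 2 without probe sets of shared probes (−0.020), and for Cenpf against PBS replicate 1 with another probe set (0.15). Other probe sets also turned the direction for Tpx2 on both sides (1.23 and 0.029, −0.26 and −0.094) and for Smc4 against PBS replicate 2 (−0.61). The cause was not tested. Signal over background limits Cenph, Kif20a and Dlgap5.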
